A study of Mus musculus with 454 samples.

Results

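Tac1, Tac2, Tacr1 and Tacr3 are the 4 tachykinin genes described here, taken as a list of symbols from a table of 43346 genes, of which 42462 carried a symbol. They were followed through RNA-seq libraries from 4 regions of the mouse brain that serve reward and social behaviour: amygdala (AMY, 115 libraries), nucleus accumbens (Nac, 112), prefrontal cortex (PFC, 112) and ventral tegmental area (VTA, 115). The study's question was what adolescent isolation does to transcripts in the reward circuit of each sex. Each region held 16 groups of 5 to 8 libraries, which crossed sex (F or M), housing (socially isolated, SI, or group-housed, G), treatment (cocaine at 7.5 mg/kg, or saline) and schedule (chronic or acute). Strain and age at dissection were not given in the labels used here, and no label states that every library of a group is a different mouse. A p-value here therefore covers the spread among libraries, which may be technical.

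Each title carried a number, and a number that recurred in several regions had the same sex, housing, treatment and schedule there. Of these numbers 86 were present in all 4 regions, and they formed 4 series starting at 500, 1000, 1100 and 1200. Series 500 held chronic saline libraries, series 1000 all the acute groups and chronic cocaine, series 1100 acute libraries, and series 1200 chronic libraries of both treatments. The labels did not say what a series stands for, so chronic cocaine and chronic saline differed partly in their series, and chronic and acute saline shared no series. Library totals ran from 11.21 to 52.34 M counts, with a median of 21.71 M. Marker lists ran with the region labels: the mean log2 level of 7 dopamine neuron genes was 8.09 in VTA and at most 1.95 elsewhere, that of 6 cortical glutamatergic genes was highest in PFC (7.04), those of both medium spiny neuron lists were highest in Nac (5.56 and 6.87), and that of 8 medial amygdala and hypothalamus genes was highest in AMY (3.16). A set of 22 libraries stood apart from their region, with 6 of them from AMY, 7 from Nac, 5 from PFC and 4 from VTA, including 3 that held transcripts of the other sex. They were kept in the values below, and calls that were lost without them are given beside those values.

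Tachykinins are short amidated neuropeptides cut from larger precursors. Tac1 encodes the precursor of substance P and neurokinin A, and Tac2 that of neurokinin B. Tacr1 encodes the receptor that prefers substance P and Tacr3 the receptor that prefers neurokinin B, and both receptors couple to Gq proteins and phospholipase C. In the striatum Tac1 is a classic gene of direct-pathway medium spiny neurons, and in mice prolonged isolation has been reported to raise Tac2 in several brain regions.

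In the mouse annotation (GENCODE M21, GRCm38) all 4 genes lie on the plus strand. Tac1 (ENSMUSG00000061762) spans chr6:7554879-7565834, Tac2 (ENSMUSG00000025400) chr10:127724478-127731768, Tacr1 (ENSMUSG00000030043) chr6:82402334-82560104 and Tacr3 (ENSMUSG00000028172) chr3:134829007-134934579. The sequences just upstream are shown for the 3 genes that passed a test in one of the comparisons within regions below. They come from RefSeq (GRCm38.p6, plus strand, 5′ to 3′) and keep only bases ahead of the annotated gene. All 4 genes matched an entry, and both strands were searched for TGACG, the half-site of the cAMP response element, which reads CGTCA on the other strand, and for the E-box CACGTG. Capitals mark CGTCA. The Tac1 window covers chr6:7554811-7554878, the Tacr1 window chr6:82402225-82402333 and the Tacr3 window chr3:134828757-134829006.
Tac1: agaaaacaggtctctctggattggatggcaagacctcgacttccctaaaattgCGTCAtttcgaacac
Tacr1: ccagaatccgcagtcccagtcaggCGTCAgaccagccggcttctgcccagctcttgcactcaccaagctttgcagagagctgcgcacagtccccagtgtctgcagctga
Tacr3: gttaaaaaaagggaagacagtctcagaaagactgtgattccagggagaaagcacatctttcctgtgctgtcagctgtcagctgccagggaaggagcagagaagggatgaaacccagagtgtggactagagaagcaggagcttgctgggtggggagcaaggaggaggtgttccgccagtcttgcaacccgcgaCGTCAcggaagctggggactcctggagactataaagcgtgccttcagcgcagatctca

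Each of these windows held the half-site once, and the 250 bases ahead of Tac2 did not hold these letters. Among 32851 RefSeq promoters, 3.45% held it within the 68 bases used for Tac1, 5.89% within the 109 bases used for Tacr1 and 17.8% within the 250 bases used for Tacr3. The E-box was in none of the 4 windows. It was in 1.13%, 1.93% and 6.02% of all promoters in windows of those lengths. A match describes letters only.

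Levels are given in CPM, counts divided by the library total in M and scaled over all libraries together, as mean ± SD over libraries. Each of the 4 genes was detected in all 4 regions, and each had its own order of regions. Tac1 averaged 54.4 ± 18.6 CPM in AMY (n = 115), 254.5 ± 112 in Nac (n = 112), then 23.2 ± 8.20 in PFC (n = 112) and 18.9 ± 10.8 in VTA (n = 115). Nac was thus the Tac1-rich region, and its lowest library, at 79.9 CPM, was above the highest in PFC (72.7) and in VTA (62.7). Tac2 averaged 15.7 ± 12.7 CPM in AMY, 7.32 ± 4.27 in Nac, then 7.98 ± 1.504 in PFC and 0.990 ± 1.26 in VTA. It was highest in AMY and lowest in VTA, where single libraries ran from 0.0902 to 9.65 CPM.

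The receptors followed other orders than their ligands. Tacr1 averaged 33.6 ± 5.69 CPM in AMY, 35.6 ± 6.29 in Nac, then 4.69 ± 1.46 in PFC and 14.0 ± 2.65 in VTA. Tacr3 averaged 17.3 ± 6.40 CPM in AMY, 12.2 ± 3.48 in Nac, then 0.747 ± 0.412 in PFC and 70.0 ± 26.4 in VTA. VTA, where Tac2 was lowest, thus held the most Tacr3, with libraries from 27.0 to 142.8 CPM. Per kilobase of annotated exon, VTA held 18.6 CPM of Tacr3 and 0.719 of Tac2, whereas PFC held 0.199 of Tacr3 and 5.79 of Tac2. On the same per-length scale Nac held 74.9 CPM of Tac1 and 5.49 of Tacr1.

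Differences between regions were tested with edgeR's quasi-likelihood test over all libraries, with Benjamini-Hochberg adjustment over 18627 genes. Most genes differ between these regions, and 84.5% of genes passed an adjusted p of 0.05 for AMY minus Nac, 81.6% for AMY minus PFC, 87.3% for AMY minus VTA, 86.0% for Nac minus PFC, 90.6% for Nac minus VTA and 89.6% for PFC minus VTA. Of the 24 differences among the 4 genes 23 passed. The exception was Tac2 in Nac minus PFC, at a log2 difference of −0.16 ± 0.11 (SE, adjusted p = 0.157). The widest was Tacr3 in PFC minus VTA, at −6.52 ± 0.09 (SE, adjusted p = 2.7e-251), and the widest for Tac1 was Nac minus VTA, at 3.78 ± 0.08 (SE, adjusted p = 3.6e-172). Tacr1 in AMY minus Nac was the smallest that passed (−0.08 ± 0.04, SE, adjusted p = 0.0364). That call was lost with other size factors (−0.054, adjusted p = 0.186), without the filter on low counts (−0.048, adjusted p = 0.316) and with the title number as a block (−0.079, adjusted p = 0.0874), so AMY and Nac stand next to each other with no firm order. Libraries of the same title number entered different regions, and apart from that pair the block changed no call.

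**Figure D1:**
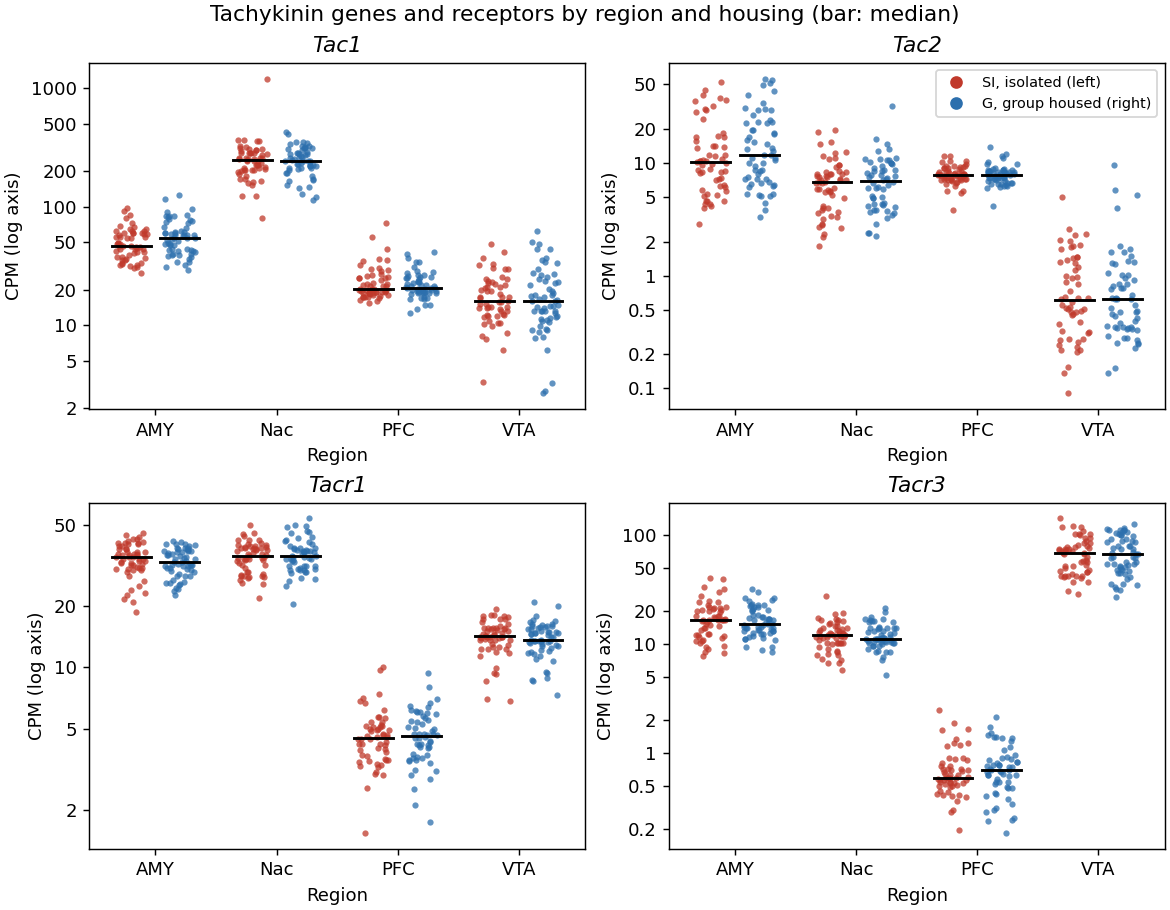
Level of each gene in every library of each region (CPM on a log axis; points are libraries, SI left of G, and lines are the medians of SI and of G). Tac1 is highest in Nac, Tac2 in AMY and Tacr3 in VTA, while Tacr1 is alike in AMY and Nac and lowest in PFC.

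Genes also differed in how steady they were within a region. The coefficient of variation of Tac2 was 81.0% in AMY and 128.0% in VTA but 18.8% in PFC. That of Tacr1 lay between 17.0% and 18.9% in AMY, Nac and VTA. In AMY single libraries spanned a 19.4-fold range of Tac2 (2.88 to 55.8 CPM) and a 2.45-fold range of Tacr1 (18.7 to 45.7 CPM). These are bulk tissue libraries, so fewer cells of a type and less RNA per cell cannot be told apart.

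Isolation was the first comparison, averaged within each region over sex, treatment and schedule. Neither these 4 genes nor any other passed the test in any region. The share of genes called was 0.0% in each region (0 genes by edgeR, DESeq2 and limma). An unadjusted p under 0.05 was reached by 708 AMY genes, 421 Nac genes, 407 PFC genes and 568 VTA genes. In data simulated for the AMY comparison the same test recovered 49 of 50 genes changed 1.25-fold and 19 of 50 changed 1.1-fold. The simulated spread was set and not fitted to these 4 genes. Their coefficients of variation in AMY were 34.1% for Tac1, 81.0% for Tac2, 17.0% for Tacr1 and 37.0% for Tacr3. The spread set was narrower than that of Tac1, Tac2 and Tacr3 and was not fitted to Tacr1. The recovery therefore does not show what change could be detected in any of the 4 genes.

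Tac2 averaged lower in SI than in G in AMY without passing the test, and whether regions differed in this was not tested. In AMY it averaged 14.2 ± 11.6 CPM in SI (n = 57) and 17.2 ± 13.6 in G (n = 58). SI libraries ran from 2.88 to 51.96 CPM with a median of 10.3, and G libraries from 3.34 to 55.8 with a median of 11.7. The ranges overlapped almost fully, and 22 of 57 SI libraries were above the G median. The log2 difference was −0.26 ± 0.19 (SE, 95% interval −0.63 to 0.11, adjusted p = 0.995), a fold of 0.836 with an interval from 0.648 to 1.08. Nac held 7.12 CPM of Tac2 in SI and 7.53 in G. PFC held 7.96 in SI and 7.995 in G, and VTA 0.930 in SI and 1.05 in G. The PFC difference was the tightest, at 0.00 ± 0.05 (SE), and those in Nac (−0.08 ± 0.14) and VTA (−0.14 ± 0.23) were within their errors.

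Tac1 was also lower on average in isolated AMY, without passing the adjusted test. It averaged 50.8 ± 15.8 CPM in SI and 58.0 ± 20.4 in G, with ranges of 27.7 to 98.5 in SI and 29.2 to 125.2 in G. The log2 difference was −0.17 ± 0.08 (SE, adjusted p = 0.995), and 22 of 57 SI libraries were above the G median. In Nac it averaged 259.6 ± 143 CPM in SI and 249.5 ± 69.0 in G, a log2 difference of 0.04 ± 0.09 (SE). One SI library there held 1203 CPM. PFC held 23.9 CPM in SI and 22.5 in G, and VTA 18.3 in SI and 19.4 in G.

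The receptor genes differed less than the ligand genes in AMY, but not in every region. Tacr1 averaged 34.2 CPM in SI and 33.0 in G in AMY, 35.2 in SI and 36.1 in G in Nac, 4.67 in SI and 4.70 in G in PFC, and 14.2 in SI and 13.9 in G in VTA. Its 4 log2 differences lay between −0.03 and 0.05. Tacr3 averaged 17.8 CPM in SI and 16.8 in G in AMY, 12.3 in SI and 12.1 in G in Nac, 0.731 in SI and 0.762 in G in PFC, and 69.3 in SI and 70.7 in G in VTA. Its log2 differences lay between −0.10 and 0.05, each within its error.

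**Figure D2:**
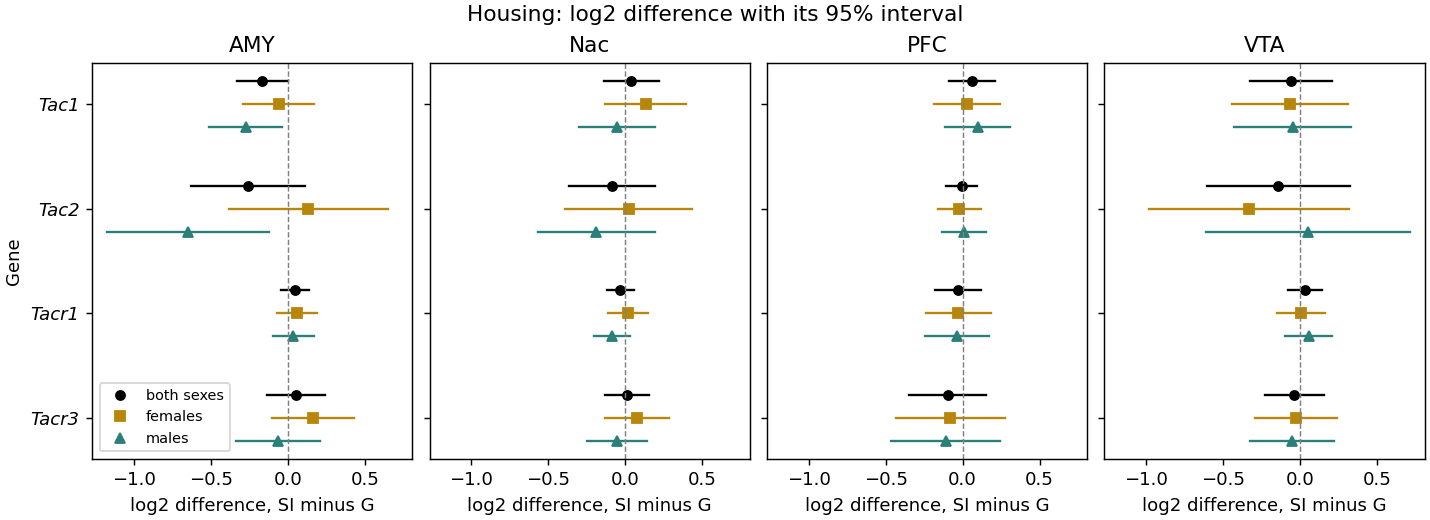
Log2 difference SI minus G of each gene in each region over all libraries, in females and in males (points are edgeR estimates, bars are 95% intervals, the dashed line is no difference). Most intervals cross 0, and those of Tac1 in AMY over all libraries and of Tac1 and Tac2 in AMY males lie below it without passing the adjusted test.

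In males the AMY differences of both ligands were larger. Tac2 averaged 15.4 ± 14.1 CPM in SI males (n = 27) and 22.4 ± 15.7 in G males (n = 29). SI males ran from 2.88 to 51.96 CPM with a median of 9.95, and G males from 3.34 to 55.8 with a median of 22.6. The 2 groups overlapped over most of their range, yet 6 of 27 SI males were above the G median. The log2 difference was −0.65 ± 0.27 (SE, 95% interval −1.18 to −0.12, adjusted p = 0.604). Tac1 averaged 51.7 CPM in SI males and 63.6 in G males (−0.27 ± 0.12, SE, adjusted p = 0.645). Tacr1 (0.03) and Tacr3 (−0.06) were level.

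In females AMY Tac2 averaged 13.2 ± 8.98 CPM in SI (n = 30) and 11.9 ± 8.72 in G (n = 29), a log2 difference of 0.13 ± 0.26 (SE). The test of females against males gave 0.78 ± 0.37 for Tac2 (SE, adjusted p = 0.658), so a sex difference in the housing response was not shown. Housing called 0.0% of genes in females, in males and in the difference between them in every region by edgeR and limma. The smallest number of genes at an unadjusted p under 0.05 was 534 in females, 241 in males and 329 in the difference. DESeq2 called 1 gene in AMY, 3 in PFC and 2 in VTA in females and 0 in the others, and none of them was a tachykinin gene.

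One library weighed on the AMY Tac2 values. In isolated males given acute cocaine (n = 5), replicate 4 held 44.4 CPM and the others 2.88 to 8.27. Without it the log2 difference was −0.42 over both sexes (adjusted p = 0.973) and −0.97 in males (adjusted p = 0.338). Without the AMY libraries that stood apart it was −0.21 over both sexes and −0.53 in males (adjusted p = 0.651). Adjusting for a score of medium spiny neuron genes made the differences smaller in size as well, at −0.09 over both sexes and −0.20 in males. The direct- and indirect-pathway lists behind that score differed by −0.04 and −0.07 on the log2 scale between SI and G, and by −0.10 and −0.18 in males. The 12 cell type lists differed between −0.08 and 0.20 in AMY, and their part in the Tac2 values was not tested. Within title-number series, Tac2 in AMY averaged 24.8 CPM in SI and 28.2 in G in series 500, 11.5 in SI and 13.6 in G in series 1000, 19.7 in SI and 23.8 in G in series 1100, and 9.04 in SI and 10.6 in G in series 1200. The SI mean was lower in each series, by less than the SD within it, but the fitted log2 difference, which is taken over groups, was 0.07 ± 0.40 (SE) in series 500 and −0.28 to −0.23 in the other series. By schedule and treatment the log2 difference was −0.42 in chronic, −0.09 in acute, −0.44 in cocaine and −0.08 in saline groups, none of them called.

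**Figure D3:**
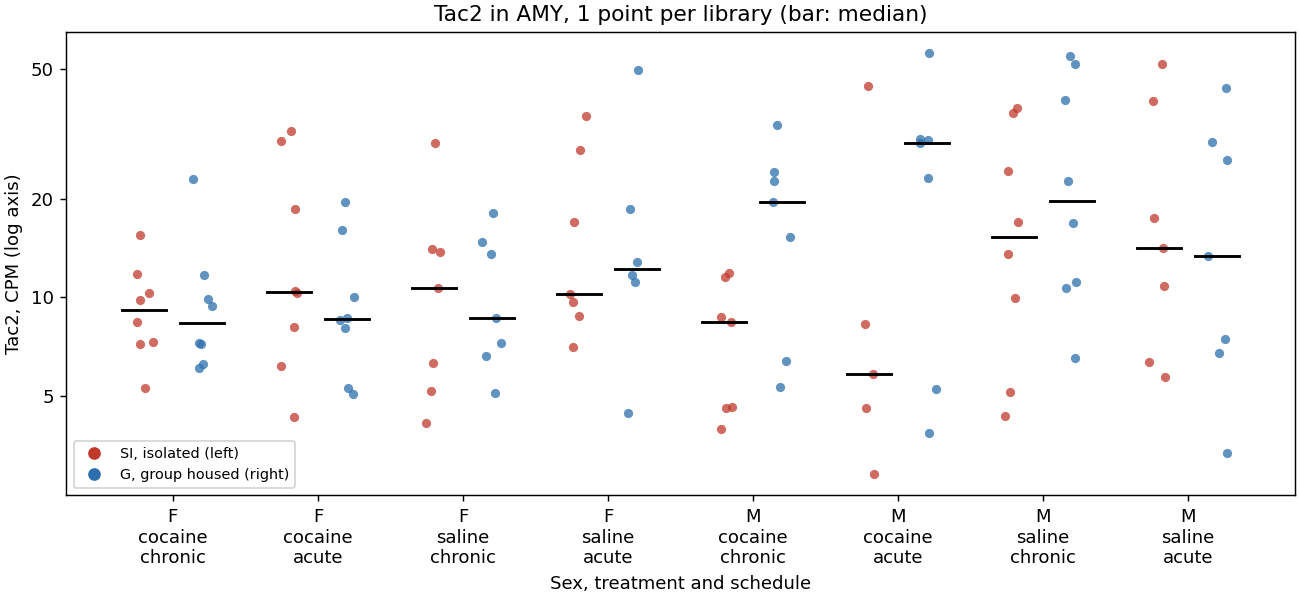
Tac2 in each AMY library (CPM on a log axis) for the 8 pairs of groups that differ in housing, SI left of G within each pair (points are libraries, lines are group medians). SI and G overlap in every pair, and the isolated males given acute cocaine hold 1 library at 44.4 CPM.

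Within the 8 pairs of groups per region that differ only in housing, 9 of the 128 tests of the 4 genes had an unadjusted p under 0.05 and 0 passed the adjustment. SI was higher in 64 of the 128. Over the 8 pairs of a region together, 0.00216% of all gene tests were called in AMY, 0.904% in Nac, then 0.000735% in PFC and 0.0525% in VTA. Among all genes, 6264 of 139128 tests in AMY and 8763 of 138128 in Nac had an unadjusted p under 0.05. The same held for 4442 of 136024 tests in PFC and 6708 of 137152 in VTA. Tac1 in AMY was lower in SI in 7 of 8 pairs, and Tac2 in 5 of 8. Tacr3 in PFC males on chronic saline had the smallest p. It averaged 0.433 ± 0.114 CPM in SI (0.289 to 0.567, n = 7) and 1.12 ± 0.65 in G (0.290 to 2.13, n = 6), a log2 difference of −1.36 ± 0.37 (SE, adjusted p = 0.369 by edgeR). Tac2 in VTA females given acute cocaine averaged 0.731 ± 0.454 CPM in SI (n = 8) and 2.54 ± 3.42 in G (n = 7), a log2 difference of −1.82 ± 0.60 (SE, adjusted p = 0.256 by edgeR). Tac2 in AMY males given chronic cocaine averaged 7.66 ± 3.33 CPM in SI and 18.2 ± 10.1 in G (n = 7 each, −1.24 ± 0.54, SE, adjusted p = 0.997 by edgeR). Of those 9 tests 5 were lower in SI and 4 higher. Higher in SI was Tac2 in VTA females given chronic cocaine, at 1.603 ± 0.538 CPM in SI (n = 7) and 0.652 ± 0.344 in G (n = 8), a log2 difference of 1.31 ± 0.62 (SE) and so opposite in sign to acute cocaine, a contrast that was not tested. Tac1 in Nac females on chronic saline had the lowest adjusted p of the 128 (0.79 ± 0.28, SE, adjusted p = 0.0664 by edgeR), with 396.6 ± 396 CPM in SI and 228.1 ± 50.3 in G (n = 6 each), and its SI group holds the library at 1203 CPM. The others higher in SI were Tac1 in PFC males given chronic cocaine (0.49 ± 0.21, SE) and Tacr1 in Nac females on acute saline (0.27 ± 0.13, SE), and the others lower were Tacr1 in PFC males on chronic saline (−0.52 ± 0.22, SE) and Tac1 in AMY males on acute saline (−0.48 ± 0.24, SE).

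Whether the housing difference itself depended on cocaine was tested as well. The share of genes called was 0.0233% in VTA (4 genes) and 0.0% in AMY, Nac and PFC (0 by edgeR and limma, and 1 gene in AMY by DESeq2). An unadjusted p under 0.05 was reached by 1428 genes in AMY, 538 in Nac and 263 in PFC. None of the 4 tachykinin genes passed. The estimates of Tac2 ran from −0.37 in AMY to 0.23 in Nac, and those of Tac1 from −0.32 in Nac, where it was −0.12 without the libraries that stood apart, to 0.32 in VTA.

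The genes around the peptides behaved in the same way. A list of 36 genes covered enzymes that process and amidate the precursors, peptidases that break tachykinins down, Gq signalling below the receptors, kisspeptin and dynorphin partners of neurokinin B, and the remaining family members Tac4 and Tacr2. Kiss1, the kisspeptin precursor, was not analysed here. Of 33 listed genes tested in each region, 0 rose and 0 fell with isolation, with medians from −0.02 to 0.01 on the log2 scale. Tac4, the hemokinin precursor, averaged at most 0.0621 CPM, and Tacr2, the neurokinin A receptor, at most 0.352 CPM, in PFC.

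Tacr1 in PFC was higher in chronic cocaine than in chronic saline, 2 arms that differed partly in their title-number series. Tacr1 averaged 5.49 ± 1.73 CPM in chronic cocaine (n = 28) and 4.01 ± 1.55 in chronic saline (n = 26). Cocaine libraries ran from 2.84 to 10.1 CPM with a median of 5.03, and saline libraries from 1.54 to 9.42 with a median of 3.77. The ranges overlapped, but 26 of 28 cocaine libraries were above the saline median. The log2 difference was 0.45 ± 0.11 (SE, 95% interval 0.24 to 0.67, adjusted p = 0.00766), a fold of 1.37 with an interval from 1.18 to 1.59. In this comparison 7.12% of genes were called of the 17003 tested.

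The title-number series moved with that difference. Among chronic cocaine libraries Tacr1 averaged 5.60 ± 1.75 CPM in series 1000 (n = 20) and 5.22 ± 1.78 in series 1200 (n = 8). Among chronic saline libraries it averaged 2.83 ± 0.75 in series 500 (n = 10) and 4.75 ± 1.47 in series 1200 (n = 16). The low saline libraries were thus those of series 500, which holds no cocaine libraries. With the series as a covariate the log2 difference was 0.11 (adjusted p = 1.0), and within series 1200 it was 0.12 (adjusted p = 1.0). The number of genes called fell to 1 under either. The rise in Tacr1 and the difference between series 500 and the others cannot be told apart.

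Medium spiny neuron markers moved with it too. Of 6 indirect-pathway markers 5 rose, with a summed level of 37.5 to 505 CPM (median 59.9) in chronic cocaine and 39.4 to 246 CPM (median 45.3) in chronic saline, and none was at a median of 0. Of 7 direct-pathway markers 2 rose. Other lists moved as well. The mean log2 level was higher in chronic cocaine by 0.31 for 7 central amygdala markers (1 of them rose, Dlk1), by 0.30 for 5 cholinergic markers (3 rose) and by 0.31 for 6 oligodendrocyte markers (0 rose), against 0.56 for the indirect-pathway and 0.21 for the direct-pathway list. The mean log2 level of the indirect-pathway list was 3.02 in cocaine of series 1000 and of series 1200, 2.01 in saline of series 500 and 2.74 in saline of series 1200. With a medium spiny neuron score as a covariate the Tacr1 difference was 0.25 (adjusted p = 0.276). The part of these markers in the result was not tested.

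**Figure D4:**
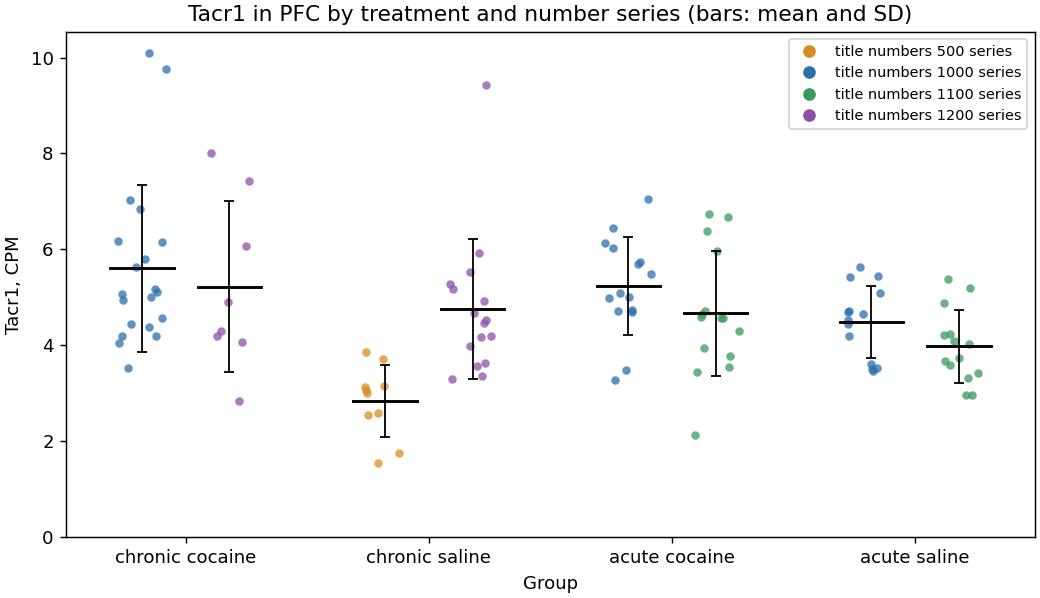
Tacr1 in each PFC library (CPM) by schedule and treatment, with colours for the title-number series (points are libraries, lines and bars are the mean and SD of each series). Chronic cocaine sits above chronic saline, and the lowest saline libraries are those of series 500.

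The other tachykinin genes in PFC did not pass in that comparison. Tac1 averaged 26.6 ± 12.6 CPM in chronic cocaine and 21.6 ± 5.30 in chronic saline (0.29 ± 0.11, SE, adjusted p = 0.0887). Tacr3 averaged 0.889 ± 0.524 CPM in chronic cocaine and 0.679 ± 0.421 in chronic saline (0.41 ± 0.18, SE, adjusted p = 0.147), and Tac2 7.97 in chronic cocaine and 8.32 in chronic saline. Of the 33 pathway genes tested 1 rose and 5 fell, which is 18.2% of the list beside 7.12% of all genes. The neprilysin gene Mme, whose product degrades substance P, rose by 0.29 on the log2 scale (8.16 ± 3.20 CPM in chronic cocaine, 6.65 ± 1.80 in chronic saline). Those that fell were Pcsk2, a prohormone convertase (−0.23), Pam, the amidating enzyme (−0.16), Dpp4, a dipeptidyl peptidase (−0.44), Rgs4, a regulator of Gq signalling (−0.27), and Prkcb, a protein kinase C (−0.18). All 6 lost their call with the series as a covariate, within series 1200 and with the medium spiny neuron score, and Mme also with limma and, like Rgs4, without the filter on low counts.

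In the other regions chronic cocaine called 0.0518% of genes in AMY, 0.151% in Nac and 0.0817% in VTA, and no tachykinin gene. The lowest unadjusted p was that of Tac2 in AMY, at 11.2 ± 7.02 CPM in chronic cocaine and 17.4 ± 14.0 in chronic saline (n = 30 each, −0.56 ± 0.26, SE, p = 0.0308, adjusted p = 0.677). There too the saline libraries of series 500 stood apart, at 26.6 CPM against 10.3 in series 1200, and the difference was −0.18 with the series as a covariate and −0.09 within series 1200.

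Acute cocaine, where both treatments were present in series 1000 and 1100, called 0.0% of genes in AMY and in Nac, 0.0647% in PFC and 0.0467% in VTA. In AMY edgeR, DESeq2 and limma called 0 genes (538 had an unadjusted p under 0.05), and in Nac edgeR and limma called 0 and DESeq2 2 (894 had an unadjusted p under 0.05). No tachykinin gene passed. Tacr1 in PFC averaged 4.95 ± 1.19 CPM in acute cocaine (n = 30) and 4.23 ± 0.79 in acute saline (n = 28), a log2 difference of 0.23 ± 0.10 (SE, p = 0.0267, adjusted p = 0.412). Cocaine was above saline on average in series 1000, at 5.23 CPM in cocaine and 4.49 in saline, and in series 1100, at 4.66 CPM in cocaine and 3.97 in saline. Tac2 in VTA averaged 1.40 ± 2.10 CPM in acute cocaine and 0.821 ± 1.08 in acute saline (0.69 ± 0.33, SE, adjusted p = 0.723, and 0.30 by limma), with medians of 0.522 in cocaine and 0.485 in saline. For Tac1 and Tacr1 in VTA the 2 series differed in direction. Tac1 averaged 20.6 CPM in cocaine and 31.1 in saline in series 1000, but 26.35 in cocaine and 19.8 in saline in series 1100. Tacr1 averaged 13.7 CPM in cocaine and 16.4 in saline in series 1000, but 14.2 in cocaine and 12.1 in saline in series 1100. The difference between series was not tested.

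The clearest differences lay between chronic and acute saline, both in VTA, where 43.6% of all genes were called. These arms shared no title-number series, so schedule and series cannot be told apart. Among saline libraries Tac1 averaged 13.2 ± 3.71 CPM in chronic saline (n = 29) and 24.6 ± 13.1 in acute saline (n = 28). Chronic libraries ran from 6.18 to 22.8 CPM with a median of 13.1, and acute libraries from 2.66 to 48.5 with a median of 24.6. The chronic libraries lay inside the acute range, and 0 of 29 were above the acute median. The log2 difference was −0.87 ± 0.19 (SE, 95% interval −1.253 to −0.49, adjusted p = 1.2e-04), a fold of 0.547.

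Tacr3, which had its highest regional level in VTA, was lower in chronic saline as well. It averaged 57.1 ± 18.2 CPM in chronic saline and 83.0 ± 30.9 in acute saline, with ranges of 35.6 to 102.8 in chronic and 27.0 to 142.8 in acute. Of 29 chronic libraries 3 were above the acute median of 86.7 CPM. The log2 difference was −0.52 ± 0.14 (SE, adjusted p = 0.00121), a fold of 0.698. Tacr1 was level, at 13.95 CPM in chronic and 13.93 in acute saline (0.01 ± 0.08, SE), and Tac2 differed by −0.10 ± 0.34 (SE).

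These differences stand against a wide background. In VTA 43.6% of genes were called for schedule under saline (7470 of 17144), and 20.4% were called in AMY, 20.9% in Nac and 23.3% in PFC, where no tachykinin gene passed. Chronic and acute saline shared no title-number series, so among saline libraries schedule and series cannot be told apart. Within the chronic libraries Tac1 averaged 11.3 CPM in series 500 and 14.6 in series 1200, and within the acute libraries 31.1 in series 1000 and 19.8 in series 1100. Tacr3 averaged 53.5 and 59.7 CPM in the chronic series 500 and 1200, and 97.9 and 71.7 in the acute series 1000 and 1100. Both chronic series were thus below both acute series for both genes. Cocaine libraries showed the same order, with Tac1 at 14.7 CPM in chronic and 23.2 in acute cocaine. Tacr3 was at 61.2 CPM in chronic and 79.1 in acute cocaine. Series 1000 held cocaine libraries of both schedules. Within it Tac1 averaged 15.2 ± 3.9 CPM in chronic (n = 21) and 20.6 ± 9.8 in acute cocaine (n = 16). Tacr3 averaged 59.4 ± 21.0 CPM in chronic and 86.2 ± 25.2 in acute cocaine of that series. These comparisons of cocaine libraries were not tested.

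**Figure D5:**
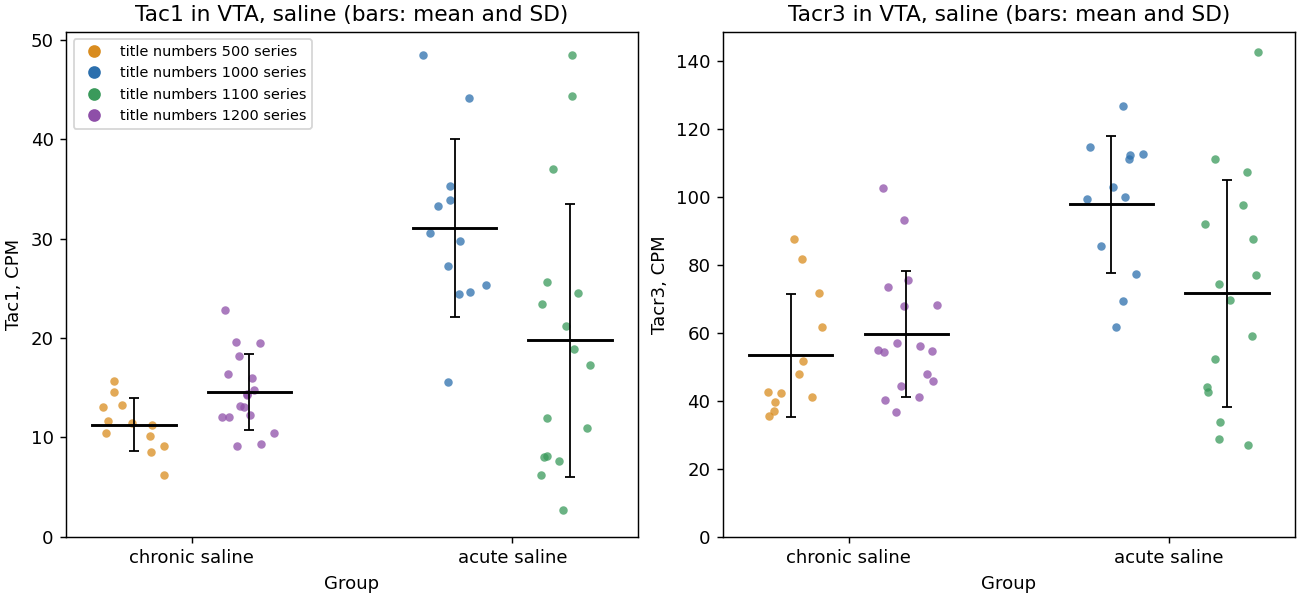
Tac1 and Tacr3 in each saline VTA library (CPM), chronic left of acute, with colours for the title-number series (points are libraries, lines and bars are the mean and SD of each series). Chronic saline is narrower and lower than acute saline, which spans 2.66 to 48.5 CPM for Tac1.

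Cell type markers in VTA moved with schedule. All 7 dopamine neuron markers rose, with a summed level of 2640 to 8378 CPM (median 5492) in chronic saline and 1306 to 5170 CPM (median 3250) in acute saline. Of 5 somatostatin and Nos1 interneuron markers 3 fell, with summed medians of 62.4 CPM in chronic and 136.6 in acute saline. Of 7 choroid plexus markers 4 fell, with summed medians of 17.9 CPM in chronic and 29.4 in acute saline. Of 7 direct-pathway medium spiny neuron markers 3 fell (Drd1 by 0.73, Ebf1 by 0.66 and Eya1 by 0.47 on the log2 scale), with summed medians of 92.8 CPM in chronic and 101.5 in acute saline. Of 8 medial amygdala and hypothalamus markers 2 rose and 4 fell, and of 6 indirect-pathway markers 2 rose and 1 fell. None of these lists had a marker at a median of 0, and their part in the Tac1 and Tacr3 values was not tested.

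Of the 33 pathway genes tested in VTA 4 rose and 6 fell with schedule. That is 30.3% of the list beside 43.6% of all genes, and the shares elsewhere were 12.1% of the list beside 20.4% of all genes in AMY, 21.2% beside 20.9% in Nac and 18.2% beside 23.3% in PFC, so the list's share was close to or below that of all genes. Gna14, a Gq-class alpha subunit, fell by 1.32 on the log2 scale (0.461 ± 0.184 CPM in chronic saline, 1.16 ± 0.40 in acute saline, adjusted p = 9.1e-13). Rgs4 fell by 0.54, Pam by 0.32, Pcsk2 by 0.30, Pcsk1, a second prohormone convertase, by 0.24 and Ece2, an endothelin-converting peptidase, by 0.17. The genes that rose were Prkca, a protein kinase C (0.54), Plcb2, a phospholipase C (0.16), Rgs2, another regulator of Gq signalling (0.14), and Nln, the neurolysin gene (0.13). In AMY Itpr2 and Itpr3, receptors for the second messenger inositol trisphosphate, rose and Pcsk1 and Furin, a general proprotein convertase, fell. In Nac Pcsk1n, an inhibitor of Pcsk1's product, Kiss1r, the kisspeptin receptor, and Prkcb rose, and Pcsk1, Furin, the Gq subunit gene Gnaq and the phospholipase C gene Plcb4 fell. In PFC Dpp4 and Ece2 rose, and Pcsk1, Furin, Ece1 and Rgs2 fell. Calls lost under alternatives were Pcsk1n in Nac without the libraries that stood apart (0.19, adjusted p = 0.156) and with limma (0.35, adjusted p = 0.0518), Rgs2 in PFC without those libraries (−0.10, adjusted p = 0.0756) and without the filter on low counts, Plcb4 in Nac with the medium spiny neuron score, and Dpp4 in PFC and Pcsk1 in VTA without the filter. Pcsk1 fell in all 4 regions, most in Nac (−0.89, 8.44 ± 2.40 CPM in chronic saline and 16.3 ± 7.62 in acute saline).

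Sex differences were not called for any of the 4 genes, against 2.19% of genes in AMY, 0.272% in Nac, then 1.12% in PFC and 0.332% in VTA. Tac2 in AMY had the lowest adjusted p, at 12.6 ± 8.80 CPM in females (n = 59) and 19.0 ± 15.2 in males (n = 56). Females ran from 4.14 to 49.5 CPM with a median of 9.92, and males from 2.88 to 55.8 with a median of 13.5. The log2 difference was −0.50 ± 0.19 (SE, adjusted p = 0.133), and 18 of 59 females were above the male median. With the medium spiny neuron score as a covariate it was called (−0.47, adjusted p = 0.0394), and with limma it was smaller (−0.32, adjusted p = 0.457). Without the AMY library at 44.4 CPM it was −0.35 (adjusted p = 0.338). Tacr1 in Nac was 0.12 ± 0.04 higher in females on the log2 scale (SE, adjusted p = 0.323).

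Across libraries within a region, 24 pairs of the genes were correlated on log2 levels after the group means were taken out, with permutation p-values adjusted over the 24. Transcripts of the neurokinin B precursor and of its receptor ran together in AMY, where Tac2 and Tacr3 had r = 0.716 and rho = 0.72 over 115 libraries (permutation p = 1e-05 each, the smallest 100000 permutations can give, adjusted p = 2.7e-05 and 3.4e-05). Without the 2 libraries farthest from the median of Tac2 r was 0.702, and within the series 500, 1000, 1100 and 1200 it was 0.432, 0.709, 0.694 and 0.549. The same pair in Nac had r = 0.553, but −0.354 within series 500. Tac1 and Tacr1 in VTA had r = 0.764 and rho = 0.66 (permutation p = 1e-05 each), with 0.289, 0.698, 0.868 and 0.073 within the 4 series, so it was weak in series 500 and 1200, which hold chronic libraries only, and the difference between series was not tested. Tac1 and Tacr3 were positively related in PFC (r = 0.662, within series 0.317 to 0.794) and negatively in Nac (r = −0.465, within series −0.636 to −0.19). Libraries of a region share their dissection, and cell content was not held constant. Over the cell type lists in AMY, r of Tac2 ran from −0.282 (astrocyte) to 0.749 (central amygdala). That of Tacr3 ran from −0.383 (somatostatin and Nos1 interneuron) to 0.898 (cholinergic neuron). Both genes ran with several of the same lists. For Tac2 r was 0.712 with the cholinergic, 0.725 with the direct-pathway and 0.636 with the indirect-pathway list. For Tacr3 it was 0.701 with the direct-pathway, 0.707 with the indirect-pathway and 0.684 with the central amygdala list. With the medial amygdala and hypothalamus list it was −0.019 for Tac2 and 0.041 for Tacr3. The part of cell content in the correlation of Tac2 with Tacr3 was not tested.

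The genes most alike to each tachykinin gene were ranked by Pearson r over the libraries of a region, again with the group means taken out, in AMY and in the region of its highest level. For Tac2 in AMY they were Vdr and Isl1 (r = 0.827 and 0.826 over 115 libraries), Chrna2, Rxfp2 and Sema3c, and for Tacr3 in AMY Gad1 (0.916), Slc10a4, Lhx8, Skor1 and Gbx1. For Tac1 in Nac they were Lmo4 (0.922 over 112 libraries), Ppp1cc, Tsnax, Pcp4l1 and Syndig1, and for Tacr1 in Nac Gpr83 (0.836), Htr1d, St8sia3, Tomm70a and Mei4. In AMY Tac1 was most like Mesd (0.799), Igsf1, Btbd11, Rnase6 and Mb21d2, and Tacr1 most like Tmem163 (0.74), Klhl14, Chrm3, Vopp1 and Trpa1. For Tacr3 in VTA they were Sdc2 (0.937), Ghr, Npbwr1, Ano2 and Lpl. Isl1 is also in the direct-pathway marker list, and Lhx8 and Slc10a4 in the cholinergic list.

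One Nac library carried the highest Tac1 of all. Replicate 6 of the isolated females on chronic saline held 1203 CPM of Tac1, and the others of its group 182 to 257. Over the libraries of series 500 alone, where it falls, Tac1 averaged 511.7 CPM in SI (n = 4) and 236.8 in G (n = 6), a log2 difference of 1.29 (adjusted p = 0.00205 by edgeR), and 8163 genes were called (47.5%). Without the libraries that stood apart the difference in that series was 0.12 and 0 genes were called, and the difference over all Nac libraries was −0.05.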

How the data were processed

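Polyadenylated RNA (300 ng per library, stranded mRNA kit) was sequenced as 50-base single reads in pools of 21 libraries, each pool 3 times, per the labels' protocols. The authors aligned reads with STAR, counted them per gene with featureCounts on mm10 and used limma, per the submitters' processing notes, and deposited raw counts per Ensembl gene. For versions, annotation release and strand setting: not given in the sources used here. Symbols came from GENCODE M21, and the 884 genes without one (0.11% of counts) were kept in the tests. The counts were tested in each region with edgeR 4.0.16 (R 4.3.3) in a quasi-likelihood model of the 16 groups, with filterByExpr, TMM scaling, Benjamini-Hochberg adjustment over all genes passing the filter and a threshold of 0.05. Regions were compared in 1 model of all libraries. All 4 members passed the filter in every region.

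Alternatives used DESeq2 1.42.0, limma 3.58.1 (voom), other size factors, no filter, the title-number series or a medium spiny neuron score as covariates, fewer libraries and the title number as a replicate block. Libraries stood apart by a robust z over 5 on 4 principal components, over 8 on a foreign marker list, or 5% or more of the other sex's transcripts. CPM values were scaled by TMM over all libraries. Correlations used log2(CPM + 0.5) and 100000 permutations. No 2 libraries of a group differed by less than sampling noise (lowest chi-square per degree of freedom 2.81). Totals of 11.21 to 52.34 M counts limit precision at low CPM. The members and the lists were chosen with earlier results of these data known. All members were named in every comparison, and listed genes where they passed the threshold. In counts simulated from the gene means and totals of these libraries, at a spread that was set and not fitted, the regional model recovered 50 of 50 genes changed 1.5-fold with housing in AMY, with 15 false calls among 17181 genes. That spread was narrower than the spread of Tac1, Tac2 and Tacr3 in AMY, and it was not fitted to Tacr1 either.

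Each title number enters a region once, so no pairing exists within a region. Between regions the number pairs libraries that share a condition.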

Additional observations from a re-analysis of the deposited data

Results flagged for a closer look

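A library was set apart when its gap to the nearest library of its group, as a share of the group's range, passed Dixon's 95% critical value. This held for 20 of 256 cases (7.81%), a case being 1 of the 4 genes in 1 of the 64 groups, where chance gives about 1 in 20. The cases are not independent, since some libraries recur across genes. No cause was tested.

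Tac1 was affected in 6 groups. In Nac, replicate 6 of the isolated females on chronic saline held 1200 CPM (1203 before rounding) and the others 182 to 257, and replicate 2 of the group-housed females on chronic cocaine held 115 CPM against 256 to 327. In PFC, replicate 5 of the isolated females on acute saline held 44.0 CPM against 19.1 to 27.2, replicate 5 of the group-housed females on acute saline 39.7 against 14.7 to 22.5, and replicate 4 of the isolated males on chronic saline 26.8 against 17.1 to 18.8. In VTA, replicate 7 of the isolated males on acute cocaine held 3.34 CPM against 20.8 to 41.2.

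Tac2 was affected in 4 groups. The Nac library with the highest Tac1 also held 18.7 CPM of Tac2, against 3.80 to 6.79. In VTA, Tac2 was 2.35 CPM in replicate 3 of the isolated females on chronic saline against 0.374 to 0.508, 5.79 CPM in replicate 2 of the group-housed females on acute saline against 0.341 to 0.847, and 5.20 CPM in replicate 7 of the group-housed males on acute cocaine against 0.151 to 0.775.

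Tacr1 was affected in 5 groups. It was 28.7 CPM in replicate 1 of the isolated Nac females on acute saline against 40.1 to 45.7. In PFC it was 6.84 CPM in replicate 2 of the isolated females on chronic cocaine against 4.20 to 5.16, and 2.12 CPM in replicate 6 of the group-housed females on acute cocaine against 4.56 to 6.73. In VTA it was 7.04 CPM in replicate 7 of the isolated males on acute cocaine against 13.6 to 19.4, the library that also held little Tac1, and 7.32 CPM in replicate 7 of the group-housed females on acute saline against 11.8 to 16.4.

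Tacr3 was affected in 5 groups. In Nac it was 17.5 CPM in replicate 6 of the isolated females on chronic cocaine against 9.99 to 12.3, and 21.3 CPM in replicate 2 of the group-housed females on chronic cocaine against 8.53 to 11.3, the library with low Tac1. In PFC it was 1.35 CPM in replicate 5 of the isolated females on acute saline against 0.581 to 0.710. In VTA it was 33.7 CPM in replicate 7 of the group-housed females on acute saline against 69.8 to 115, and 27.0 CPM in replicate 7 of the group-housed males on acute saline against 61.9 to 127.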

How the results depend on the processing

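Of 1392 values of the 4 genes under alternatives, for 168 results, 1384 kept their direction or stayed uncalled, 6 lost a call, 2 gained one and 0 reversed. Among the 1298 uncalled both ways, 126 had the other sign. Tacr1 in PFC under chronic cocaine lost its call with the series covariate (0.11), with the medium spiny neuron score (0.25) and within series 1200 (0.12). Tacr1 for AMY minus Nac lost it with other size factors (−0.054), without the filter (−0.048) and with the replicate block (−0.079), and the block changed no other call among the members. No paired analysis was possible within a region because no title number occurs more than once there. Tac2 for sex in AMY gained a call with the medium spiny neuron score (−0.47), and Tac1 for housing in Nac within series 500 (1.29), which ended without the libraries that stood apart, an alternative added after seeing the data. Housing in cocaine groups alone was added in the same way and called no member. The VTA differences in Tac1 and Tacr3 with schedule kept direction and call under every alternative run, from −0.87 to −0.68 and from −0.53 to −0.46. None of those alternatives held the title-number series constant, because chronic and acute saline share no series. The alternatives therefore do not separate schedule from series. The call count for chronic cocaine in PFC ran from 1 to 1376 genes, and for housing in VTA from 0 to 22. Leaving out each of the 5 AMY isolated males on acute cocaine moved the male Tac2 difference between −0.97 and −0.59. Tac2 in VTA and Tacr3 in PFC averaged under 1 CPM, the lowest regional levels of the members, and what difference could be detected there was not tested.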

Other observations

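The genes around the tachykinins had their own regional levels, given here as values with no test (mean ± SD over 115 AMY, 112 Nac, 112 PFC and 115 VTA libraries). Mme, which encodes the substance P-degrading peptidase neprilysin, averaged 34.0 ± 10.6 CPM in Nac, 23.6 ± 5.74 in VTA, 8.60 ± 3.23 in AMY and 7.13 ± 2.21 in PFC, so it was highest where Tac1 was. Dpp4 averaged 4.27 ± 1.15 CPM in PFC and at most 1.27 in the other regions. Pam, which adds the amide that tachykinins need, was high throughout, from 199.9 CPM in Nac to 295.8 in AMY. Among the partners of neurokinin B, the dynorphin precursor Pdyn averaged 306.4 ± 72.5 CPM in Nac, between 29.4 and 32.1 in AMY and PFC and 3.76 ± 1.53 in VTA, while its receptor Oprk1 averaged 62.6 ± 16.6 CPM in Nac and 50.5 ± 14.98 in VTA. Kiss1r lay between 5.62 and 8.30 CPM in all 4 regions.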
